A study of Mus musculus with 4 samples.

Results

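The collagen genes of mouse small intestinal organoids were compared between cultures of fetal and of adult origin. Members were all genes whose mouse symbol is Col, a type number, the letter a and a chain number, and 44 such genes were found among the 55416 genes of the deposited tables. They comprised 11 fibrillar chains, 9 chains of basement membranes, 4 transmembrane chains and 20 chains of other types.

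Organoids are epithelial cultures grown from intestinal cells as hollow bodies in a gel. The adult group (n = 2 libraries) was made from intestinal epithelial cells of C57BL/6 mice 4 to 8 weeks old, and the fetal group (n = 2 libraries) from such cells of C57BL/6 embryos of stage E15.5. All cultures were kept in IntestiCult medium and embedded in Matrigel, a basement-membrane gel, and poly-A selected RNA was sequenced. No genetic change or drug is named for either group. Nothing in the labels says whether the 2 libraries of a group came from separate animals or cultures, or whether animals were pooled, so the p-values cover nothing but the scatter of these libraries, and that scatter may be technical. The libraries held 10862119 to 13061533 estimated counts. Epithelial identity was checked on 7 markers, which summed to 4231 to 4235 CPM (counts scaled to library size) in adult and 6781 to 6810 CPM in fetal libraries. Of the 7, 4 were higher in fetal, 2 lower and 1 was not called. Krt8 and Krt19, keratins of simple epithelia and the most abundant by the mean of the 4 libraries, rose from 1036 and 999.6 to 2017 and 2001 CPM and from 572 and 581 to 1432 and 1430 CPM. Named after their values were seen, Epcam, an adhesion molecule of epithelia, fell from 949.9 and 962 to 725 and 742 CPM, Vil1, the villin of the brush border, fell from 387 and 398 to 351 and 356 CPM, and the intestinal transcription factor Cdx2 was not called.

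Collagens are secreted or membrane proteins whose chains wind around each other in a helix built from repeats that begin with glycine. Type IV collagen forms the network of the basement membrane on which the intestinal epithelium rests. The fibrillar types I, III and V give the stroma below it its strength and are made mainly by fibroblasts, and type VI forms beaded filaments close to the basement membrane. Chains are hydroxylated and folded in the endoplasmic reticulum, trimmed outside the cell and then cross-linked.

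Collagen transcripts were scarce in adult organoids and more abundant in fetal organoids. The 44 genes together took 0.00288% and 0.003% of the estimated counts in adult libraries and 0.126% and 0.122% in fetal libraries. At least 1 count was found for 21 and 26 collagens in adult and for 38 and 39 in fetal libraries. In TPM, a unit of transcript abundance scaled for gene length, the summed level was 9.42 and 11.2 in adult and 361 and 364 in fetal libraries, and the groups did not overlap. In bulk samples fewer cells of a type and less RNA per cell cannot be told apart.

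Of the 44 collagens, 18 passed the filter on low counts and were tested, 15 of them were higher in fetal organoids, 1 was lower and 2 were not called (quasi-likelihood test of edgeR, p adjusted after Benjamini and Hochberg over all 14271 genes tested and called under 0.05). Among all genes tested 66.5% were called, 33.9% higher and 32.7% lower in fetal. Adult and fetal values were separate for 16 collagens that were higher in fetal and for 1 that was lower, against 41.9% and 40.8% of all genes tested. A log2 fold change above 1 was found for 15 of the 18 and for 14.0% of all genes, and 14 of the 18 were called higher with a fitted change of more than 16-fold, against 3.69% of all genes. These shares are no support by themselves, because 13 of the 18 passed the filter through the fetal libraries alone, where they were high. The other 5, Col4a1, Col4a2, Col18a1, Col11a2 and Col20a1, passed in both groups. The median log2 fold change of the 18 was 5.54 as fitted, and 5.02 with the 6 genes that had 0 adult counts placed at their lower bound, against 0.01 over all genes tested. With library totals in place of the TMM scaling factors the median of all genes moved to 0.25, and 16 collagens were higher and 0 lower. The plot of collagen levels by library shows the 4 values behind each of these calls.

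**Figure D1:**
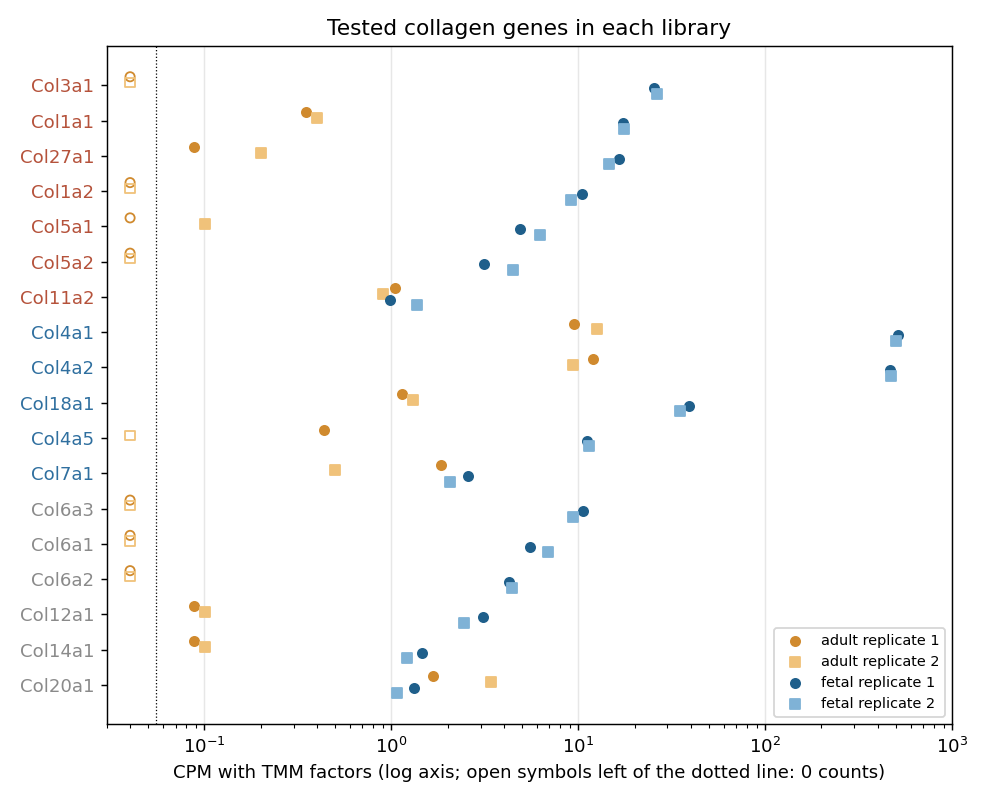
CPM of the 18 tested collagens in each library on a log axis, with fibrillar chains named in red, basement-membrane chains in blue and other types in grey; open symbols left of the dotted line are libraries with 0 counts. Col4a1 and Col4a2 lie at 466 to 515 CPM in fetal libraries, and among the 18 genes Col11a2 is the one whose groups overlap.

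Basement-membrane collagens carried most of the signal. Col4a1, the alpha-1 chain of type IV collagen, had 108 and 125 counts in adult and 7370 and 6576 in fetal libraries, or 9.47 and 12.6 CPM against 515 and 501 CPM. Col4a2, the alpha-2 chain with which it assembles, stood at 12 and 9.34 CPM in adult and 466 and 473 CPM in fetal libraries. For both chains the adult libraries were low, the fetal libraries high, and the groups far apart. Col4a1 rose 46.1-fold (log2 fold change 5.54 ± 0.07 SE, edgeR adjusted p = 5.76e-15) and Col4a2 44-fold (5.45 ± 0.06 SE, edgeR adjusted p = 4.58e-15). By mean TPM, Col4a1 was the gene ranked 685 of all genes in fetal and 10106 in adult organoids, and Col4a2 was ranked 1211 and 11460.

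The genes of these paired chains lie next to each other, head to head. RefSeq places their starts 21 bases apart on opposite strands, so that the promoter windows of the RefSeq table, 250 bases before to 50 bases after each start, share 78 bases. The windows are shown as the start region of the pair, and its part in the rise of both genes was not tested. Capitals mark the shared stretch, which the second line gives on the other strand.
Col4a1, GRCm38.p6 chr8:11312777-11313076, minus strand: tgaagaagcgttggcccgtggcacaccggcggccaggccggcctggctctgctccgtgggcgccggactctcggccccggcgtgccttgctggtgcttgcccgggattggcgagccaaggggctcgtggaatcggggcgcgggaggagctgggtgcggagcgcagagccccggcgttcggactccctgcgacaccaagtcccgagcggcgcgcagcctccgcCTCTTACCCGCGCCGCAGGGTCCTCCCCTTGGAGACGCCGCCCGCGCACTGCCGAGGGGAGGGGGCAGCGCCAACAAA
Col4a2, GRCm38.p6 chr8:11312555-11312854, plus strand: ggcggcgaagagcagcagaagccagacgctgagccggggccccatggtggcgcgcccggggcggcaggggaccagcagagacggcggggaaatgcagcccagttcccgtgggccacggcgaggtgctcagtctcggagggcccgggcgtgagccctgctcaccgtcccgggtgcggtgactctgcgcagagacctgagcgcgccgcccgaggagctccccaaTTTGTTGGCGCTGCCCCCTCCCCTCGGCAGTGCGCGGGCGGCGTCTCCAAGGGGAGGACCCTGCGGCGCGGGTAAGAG
The first exons of the genes overlap in the GENCODE M21 annotation, and the sources used here do not say whether counting used the strand, so reads from that overlap cannot be told apart.

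Per length, Col4a1 exceeded Col4a2 in every library. The ratio of their TPM was 1.61 and 1.54 in fetal libraries and 1.34 and 3.06 in adult libraries. The fetal ratios lay within the adult range, so no difference in the ratio between the groups was detectable. At the level of protein, which was not measured here, the type IV heterotrimer of most basement membranes holds more alpha-1 than alpha-2 chains.

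The other type IV chains were far below this pair. Col4a5, the X-linked chain, had 5 and 0 counts in adult and 160 and 150 in fetal libraries, or 0.438 and 0 CPM against 11.2 and 11.4 CPM. The fetal libraries were alike and above both adult libraries, and the gene rose 51.6-fold (log2 fold change 5.53 ± 0.40 SE, edgeR adjusted p = 1.08e-07). Its log2 fold change was 4.65 without adult replicate 2 and 10.14 without adult replicate 1, which leaves an adult library of 0 counts. Col4a6, its head-to-head neighbour, had 0 counts in both adult and 4 and 11 in fetal libraries and was not tested. Col4a3 and Col4a4, chains known from the kidney filter, were not tested either, with few counts in any library. Col4a3 had 5.16 and 5 counts in adult and 4 and 2.14 in fetal libraries, which did not overlap, and Col4a4 had 5 and 5 against 9 and 4, which did.

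Col18a1, a proteoglycan collagen of basement membranes from which endostatin is cut, had 13 and 13 counts in adult and 560 and 462 in fetal libraries. At 1.14 and 1.31 CPM against 39.1 and 35.2 CPM, the groups did not overlap. It rose 30.4-fold (log2 fold change 4.92 ± 0.16 SE, edgeR adjusted p = 3.98e-11). Col7a1, which forms the anchoring fibrils under stratified epithelia, had 21 and 5 counts in adult and 37 and 27 in fetal libraries. The adult libraries differed more from each other than either fetal library did from adult replicate 1, and the gene was not called (log2 fold change 0.94 ± 0.46 SE, edgeR adjusted p = 0.0889). Without adult replicate 1 Col7a1 had a log2 fold change of 2.18 and passed (edgeR adjusted p = 0.00802, in a range of 0.00802 to 0.75 over 14 alternatives). Col15a1, the relative of Col18a1, had 2 counts in fetal replicate 2 and 0 elsewhere.

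Fibrillar collagens were close to absent in adult organoids and present at low to moderate levels in fetal organoids. Col3a1, the chain of type III collagen, had 0 counts in both adult libraries and 365 and 347 in fetal libraries, or 25.5 and 26.4 CPM. It was at least 92-fold higher in fetal, a lower bound set against a floor of 3 counts per library (edgeR adjusted p = 3.21e-10). Col1a1, the alpha-1 chain of type I collagen, had 4 counts in each adult library and 248 and 232 in fetal libraries, which is 0.351 and 0.402 CPM against 17.3 and 17.7 CPM. The rise was 46.5-fold (log2 fold change 5.51 ± 0.25 SE, edgeR adjusted p = 9e-10). Col1a2, its partner chain, had 0 adult counts and 149 and 120 fetal counts. It was at least 34.6-fold higher (edgeR adjusted p = 4.7e-08). In the fetal libraries the TPM of Col1a1 was 1.72 and 1.73 times that of Col1a2. Type I collagen protein is known to hold more alpha-1 than alpha-2 chains, but protein was not measured here.

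The promoter windows of Col1a2 and Col3a1 are shown as the start regions of fibrillar genes at 0 counts in every adult library. Capitals mark matches on either strand, to CCAAT and GGGCGG in Col1a2 and to TATAAA and GGAATG in Col3a1. These are the letters of the CCAAT box, the GC box, the TATA box and the core bound by TEAD factors. The ATTGG match in Col1a2 lies at the annotated start itself. In Col3a1 the TATAAA match lies near the middle of the window, well upstream of the annotated start. Whether any match acts as such an element was not tested.
Col1a2, GRCm38.p6 chr6:4505368-4505667, plus strand: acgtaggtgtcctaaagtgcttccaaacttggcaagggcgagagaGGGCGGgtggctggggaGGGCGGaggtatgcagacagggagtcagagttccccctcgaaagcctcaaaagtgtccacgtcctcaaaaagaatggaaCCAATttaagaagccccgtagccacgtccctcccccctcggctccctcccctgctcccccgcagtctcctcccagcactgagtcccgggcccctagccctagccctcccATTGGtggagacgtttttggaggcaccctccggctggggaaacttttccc
Col3a1, GRCm38.p6 chr1:45311288-45311587, plus strand: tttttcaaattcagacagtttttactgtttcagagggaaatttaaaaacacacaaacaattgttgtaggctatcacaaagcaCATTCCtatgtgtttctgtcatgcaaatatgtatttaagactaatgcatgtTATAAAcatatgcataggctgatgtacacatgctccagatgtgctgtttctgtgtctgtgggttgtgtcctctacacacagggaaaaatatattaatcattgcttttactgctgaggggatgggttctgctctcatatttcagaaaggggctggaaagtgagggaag
Over the 35 collagens with an entry in the RefSeq table (build GRCm38.p6), CCAAT was found for 13 genes and in 37.4% of all 32851 promoter windows, and GGGCGG for 22 genes and in 35.7% of windows. TATAAA was found for 5 collagens (13.6% of windows), GGAATG for 5 (14.7%) and TGANTCA, the AP-1 site, for 1 (7.81%). Both strands were searched, none of these motifs contains another, and some genes have several windows. Among the 11 collagens with an entry that were higher in fetal organoids, 5 held CCAAT, 8 GGGCGG, 3 GGAATG and 1 each TATAAA and TGANTCA. A match describes the letters and is not a bound site.

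Col27a1, a fibrillar chain known from cartilage, had 1 and 2 counts in adult and 236 and 191 in fetal libraries. The ratio of the summed counts, scaled for depth, was 111 (exact 95% counting interval 37.7 to 539), and its log2 fold change of 6.69 ± 0.33 SE (edgeR adjusted p = 2.3e-09) was 7.31 without adult replicate 2. By TPM, Col27a1 at 4.64 and 3.79 came just below Col1a1 at 5.45 and 4.68 in fetal libraries. Type V collagen, which starts and thins fibrils, was lower. Col5a1 had 0 and 1 counts in adult and 70 and 82 in fetal libraries, a ratio of 118 (exact 95% counting interval 20.9 to 4704). The log2 fold change of Col5a1 was 6.61 ± 0.59 SE (edgeR adjusted p = 6.67e-07), and 5.65 and 9.17 without adult replicate 1 and 2 respectively. Col5a2, which lies next to Col3a1, had 0 adult counts and 45 and 59 fetal counts and was at least 13.5-fold higher (edgeR adjusted p = 5.47e-06). The Col5a2 call was lost with limma on log2(TPM + 1) over genes above 0 TPM in 1 library (adjusted p = 0.0784, the highest of 14 alternatives that began at 2.19e-24).

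Not every tested fibrillar chain was called. Col11a2, a minor fibril chain, stood at 1.05 and 0.904 CPM in adult and 0.978 and 1.37 CPM in fetal libraries. The groups overlapped and the gene was not called (log2 fold change 0.25 ± 0.42 SE, edgeR adjusted p = 0.617). The other 4 fibrillar chains were too low to test. Col5a3 had 9 and 10, Col11a1 4 and 12, Col24a1 5 and 5 and Col2a1, the cartilage collagen, 2 and 2 counts in fetal libraries, and all of these had 0 in adult libraries. The summed level of the 11 fibrillar chains was 1.49 and 1.61 CPM in adult and 80.1 and 82.1 CPM in fetal libraries.

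**Figure D2:**
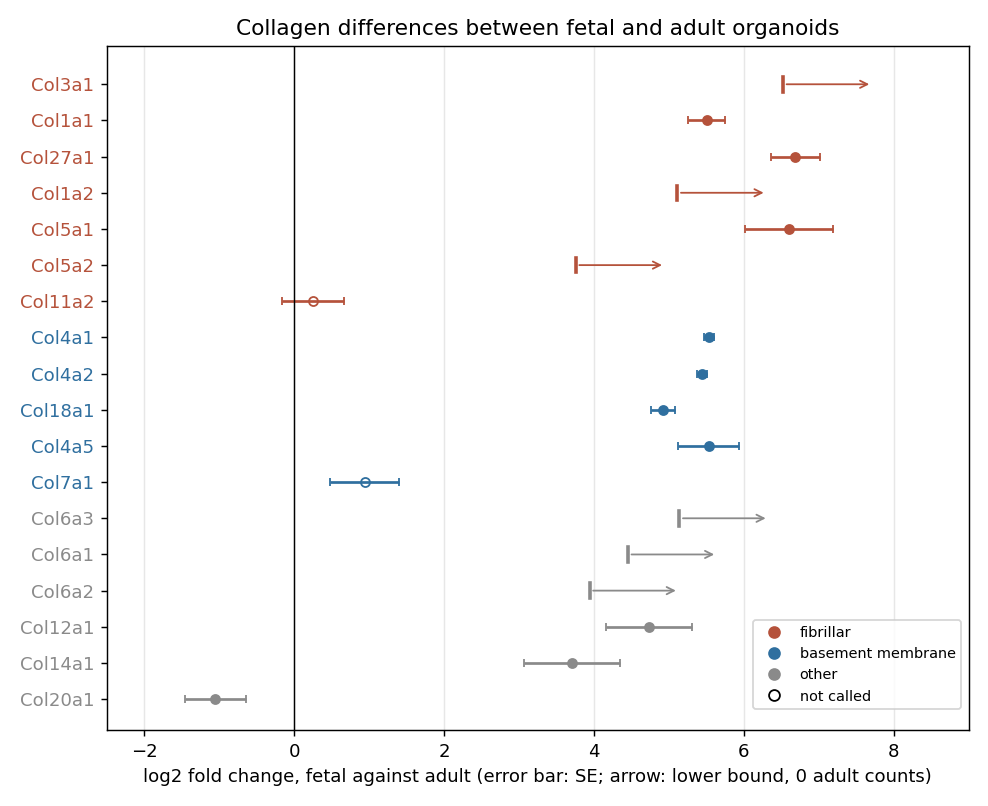
Log2 fold change of the 18 tested collagens, fetal against adult, with the SE as error bar; arrows start at the lower bound of genes with 0 adult counts, and open circles are genes that were not called. Values of genes with 1 to 3 adult counts (Col27a1, Col5a1, Col12a1 and Col14a1) depend on the prior count of the fit, and Col20a1 at -1.05 is the 1 called gene left of the zero line.

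Transmembrane collagens were at the edge of detection in both groups. Col17a1, the collagen of hemidesmosomes by which skin keratinocytes hold to the basement membrane, had 5 and 5 counts in adult and 2 and 1 in fetal libraries. Col25a1 had 2 to 5 counts, Col23a1 1 to 4 and Col13a1 0 to 1 over the 4 libraries. None of the 4 was tested. Together they held 9 and 9 counts in adult and 10 and 8 in fetal libraries, and the summed CPM was 0.789 and 0.904 against 0.699 and 0.609. For Col17a1 alone the counts were separate, and the ratio of adult to fetal was 4.28 (exact 95% counting interval 1.1 to 24.2).

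Type VI collagen was found in fetal libraries with all 3 chains of its classical trimer. Col6a1 had 79 and 90, Col6a2 61 and 58 and Col6a3 151 and 123 fetal counts, and all 3 genes had 0 counts in both adult libraries. They were at least 21.9-fold, 15.4-fold and 35.3-fold higher in fetal (edgeR adjusted p = 4.65e-07, 1.5e-06 and 4.12e-08). By TPM the 3 chains lay close together in fetal libraries, at 2.19 and 2.64 for Col6a1, 1.72 and 1.74 for Col6a2 and 1.97 and 1.60 for Col6a3. Col6a3 and Col6a2 did not differ beyond their spread. The alternative chains Col6a4, Col6a5 and Col6a6 had 0 to 3 counts in any library and were not tested.

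Among collagens that attach to the surface of fibrils, Col12a1 and Col14a1 rose. Col12a1 had 1 and 1 counts in adult and 44 and 32 in fetal libraries (ratio 29.6, exact 95% counting interval 7.91 to 249, edgeR adjusted p = 1.17e-05). Col14a1 had 1 and 1 against 21 and 16 (ratio 14.4, exact 95% counting interval 3.72 to 123, edgeR adjusted p = 0.000246). Col20a1 went the other way, with 19 and 34.29 counts in adult and 19 and 14.2 in fetal libraries, or 1.67 and 3.41 CPM against 1.33 and 1.07 CPM. The groups did not overlap, but adult replicate 1 was nearer to the fetal libraries than to adult replicate 2. Its log2 fold change was -1.05 ± 0.41 SE (edgeR adjusted p = 0.0372), and the call was lost under 9 of 14 alternatives (adjusted p 0.011 to 0.706 over all of them). Without adult replicate 2, fetal replicate 1 or fetal replicate 2 the log2 fold change of Col20a1 was -0.48, -1.22 and -0.92 (edgeR adjusted p = 0.479, 0.0585 and 0.125). Col20a1 shares exons with the gene model BX649560.1 on the same strand, which held 55 to 59.71 counts in the 4 libraries, so how the authors' counting split these reads is uncertain.

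Low counts left 14 of the 20 chains of other types untested. Col9a1, a chain of cartilage type IX collagen, had 6 and 6 counts in adult and 0 and 0 in fetal libraries, at least 2.58-fold lower in fetal. Col16a1 had 0 and 1 against 9 and 7 counts, Col26a1 2 and 2 against 9 and 6, and Col28a1 1 and 1 against 9 and 7. Col8a1, a short-chain collagen of vessel walls, had 7 and 2 against 9 and 13 counts, and Col10a1, the collagen of hypertrophic cartilage, 1 and 2 against 7 and 3. Col10a1 overlaps exons of Nt5dc1 on the other strand, which held 199 to 258 counts. Col9a2, Col9a3, Col19a1 and Col8a2 had 0 to 2 counts in every library, and Col22a1 had 0 in all 4. The 26 untested collagens of all types summed to 36.16 and 38 counts in adult and 98 and 100.14 counts in fetal libraries.

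The order of the 18 tested collagens in fetal organoids, by mean TPM (n = 2), ran from Col4a1 at 184 ± 4.86 (SD) and Col4a2 at 117 ± 0.24 to Col18a1 at 14.2 ± 0.361 and Col3a1 at 13.7 ± 5.15. Below them came Col1a1 at 5.07 ± 0.544, Col27a1 at 4.21 ± 0.601, Col4a5 at 3.98 ± 0.813, Col1a2 at 2.94 ± 0.318 and Col6a1 at 2.42 ± 0.318. Col18a1 and Col3a1 did not differ beyond their spread, nor did Col27a1 and Col4a5, while Col4a1 and Col4a2 were apart from each other and from all below them. For Col3a1 and Col4a5 the gene length behind the TPM differed between the fetal libraries, as given under the other observations. Their fetal CPM were close, at 25.5 and 26.4 for Col3a1 and 11.2 and 11.4 for Col4a5. From Col6a3 at 1.78 ± 0.262 down to Col14a1 at 0.445 ± 0.0354 each gene overlapped its neighbour in the order.

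By share, Col4a1 and Col4a2 made up 56.5% and 63.6% of the summed collagen TPM in adult and 84.4% and 82% in fetal libraries. Fibrillar chains held 4.99% and 4.01% in adult and 7.2% and 9.74% in fetal libraries, and chains of other types 16.8% and 23.6% against 3.02% and 2.65%. In each of these 3 classes the groups did not overlap, but with 2 libraries against 2 the smallest p of a two-sided exact permutation test is 0.333. The adult shares of fibrillar and other chains also rest on few counts. Col20a1, whose split from BX649560.1 is uncertain, held 19 of 38 and 34.29 of 55.29 adult counts of the other chains. Col11a2, which was not called, held 12 of 17 and 9 of 16 adult counts of the fibrillar chains. Without Col4a1 and Col4a2 the sum of the other 42 chains was 4.1 and 4.09 TPM in adult and 56.5 and 65.3 TPM in fetal libraries.

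**Figure D3:**
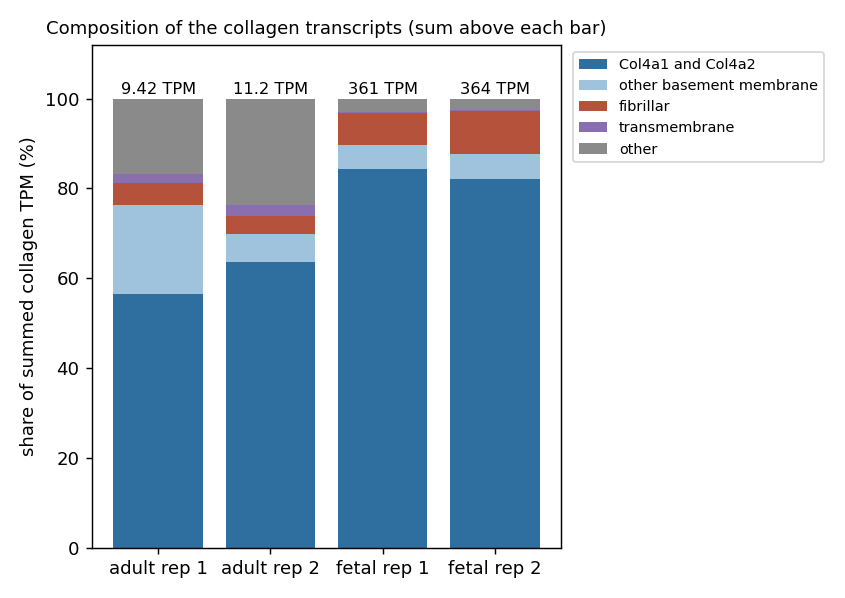
Share of the summed collagen TPM held by Col4a1 with Col4a2, by the other basement-membrane chains, and by fibrillar, transmembrane and other chains in each library, with the summed TPM above the bar. The dark blue part holds 56.5% and 63.6% in adult and 84.4% and 82% in fetal libraries, on a sum of 9.42 and 11.2 against 361 and 364 TPM.

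Collagen genes that are direct neighbours in the mouse genome formed 8 pairs among protein-coding genes of RefSeq. In 3 of them both genes were higher in fetal organoids, Col4a1 with Col4a2, Col3a1 with Col5a2 and Col6a1 with Col6a2. These were the only pairs with both genes tested, and 15 of the 18 tested collagens were higher. Col3a1, Col5a2, Col6a1 and Col6a2 had passed the filter through the fetal libraries alone. A link between neighbours was not tested. In the pair of Col4a5 and Col4a6 the first rose and the second was untested. The remaining 4 pairs, Col4a3 with Col4a4, Col9a1 with Col19a1, Col6a5 with Col6a6 and Col6a4 with Col6a5, held no tested gene.

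The genes that make, export, trim, cross-link, bind and break down collagens were counted from 8 lists with 68 members. Of 50 tested, 33 rose, 7 fell and 10 were not called, against 33.9% of all genes called higher and 32.7% called lower. The median log2 fold change of those tested was 0.92, against 0.01 over all genes tested. As for the collagens, these shares are no support by themselves, because 14 of the 50 passed the filter on low counts through the fetal libraries alone, and 13 of those 14 rose. Of the genes that passed it in the adult libraries, 20 rose, 7 fell and 9 were not called. The plot of partner genes shows the separate lists.

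Of the enzymes that modify collagen chains 8 of 12 tested rose and 4 were not called (median log2 fold change 0.65). Among all genes tested 33.9% rose, and 1 of the 8 had passed the filter through the fetal libraries alone. Plod2, the lysyl hydroxylase of the chain ends, stood at 2.63 and 3.21 CPM in adult and 61.6 and 61.0 CPM in fetal libraries. The groups were far apart, a rise of 21-fold (log2 fold change 4.40 ± 0.10 SE, edgeR adjusted p = 2.1e-12). P3h1, a prolyl 3-hydroxylase, rose from 0.984 ± 0.0283 to 6.9 ± 0.612 CPM (SD, n = 2), while Crtap, its partner in the complex, from 8.53 ± 0.703 to 19.1 ± 1.78 CPM. P4ha1, a catalytic subunit of the prolyl 4-hydroxylase that stabilises the helix, stood at 29.8 CPM in both adult libraries and 45.1 and 47.6 CPM in fetal libraries, a rise of 1.56-fold (edgeR adjusted p = 3.32e-06).

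Folding and export gave 3 higher, 3 lower and 2 not called of 8 (median log2 fold change -0.03), near the shares of all genes. Of the 3 higher, 2 had passed the filter through the fetal libraries alone. Serpinh1, the collagen chaperone HSP47, had 0 and 1 counts in adult and 133 and 150 in fetal libraries, a ratio of 220 (exact 95% counting interval 39.2 to 8732). Adult replicates 1 and 2 each shift the fit of Serpinh1, which gave a log2 fold change of 7.50 with all libraries, 6.54 without the first and 10.06 without the second. Creb3l2, a transcription factor of secretory capacity, rose from 23 and 25.1 to 35.3 and 31.2 CPM. Fkbp14, a foldase of the endoplasmic reticulum, fell from 5 and 3.41 to 2.24 and 2.66 CPM (with a log2 fold change -0.79 ± 0.28 SE, edgeR adjusted p = 0.0239), a call lost without adult replicate 1 (log2 fold change -0.48, edgeR adjusted p = 0.301) and without fetal replicate 1 (-0.66, edgeR adjusted p = 0.0981).

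All 3 tested genes of propeptide trimming rose, against 33.9% of all genes tested. Pcolce2 among them had passed the filter on low counts through the fetal libraries alone. Bmp1, the procollagen C-proteinase, went from 3.42 and 3.51 to 11.9 and 12.2 CPM, and Pcolce, its enhancer, from 1.40 and 1.10 to 6.57 and 6.62 CPM. Pcolce2, a second enhancer, had 2 and 0 counts in adult and 17 and 19 in fetal libraries (ratio 14, exact 95% counting interval 3.61 to 120). Its log2 fold change of 3.68 was 7.04 without adult replicate 1 and 2.83 without adult replicate 2. The remaining 5 genes of this list were not tested.

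The 4 tested genes of cross-linking rose, but all 4 had passed the filter through the fetal libraries alone, and 2 further genes were not tested. Pxdn, the peroxidasin that joins type IV collagen chains by sulfilimine bonds, had 1 and 0 counts in adult and 369 and 430 in fetal libraries. The fetal libraries stood at 25.8 and 32.7 CPM, and the ratio was 622 (exact 95% counting interval 111 to 24599). With all libraries its log2 fold change was 9.0, and 11.51 and 8.22 without adult replicate 1 and 2. Lox, the lysyl oxidase of fibrillar collagens, had 0 adult counts and 22 and 10 fetal counts and was at least 4.07-fold higher (edgeR adjusted p = 0.000415). Without fetal replicate 1, Lox did not pass the filter on low counts. Loxl2, a relative that also acts on type IV collagen, rose from 0.351 and 0.301 to 4.68 and 5.02 CPM.

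Collagen receptors moved both ways, with 4 higher, 2 lower and 2 not called of 8 tested. Among all genes tested 33.9% were higher and 32.7% lower. Of the 4 higher, Ddr2 and Adgrg6 had passed the filter through the fetal libraries alone. Itga1, the integrin chain that prefers type IV collagen, stood at 41.7 and 35.6 CPM in adult and 2.03 and 2.36 CPM in fetal libraries. Its fall was 17.6-fold (log2 fold change -4.14 ± 0.15 SE, edgeR adjusted p = 1.01e-10), opposite to that of the type IV chains. Itga2, the integrin chain that prefers fibrillar collagen, went from 78.1 and 74.7 to 22.2 and 22.1 CPM (log2 fold change -1.79 ± 0.07 SE, edgeR adjusted p = 1.3e-10). Ddr1, the epithelial discoidin-domain receptor for collagen, rose from 33.1 and 36.7 to 95.4 and 89.4 CPM. Ddr2, its relative for fibrillar collagens, had 2 adult counts in all and 18 and 10 fetal counts (ratio 10.9, exact 95% counting interval 2.75 to 94.4). Without fetal replicate 1, Ddr2 did not pass the filter on low counts. Adgrg6, an adhesion receptor that binds type IV collagen, had 0 adult counts and 50 and 49 fetal counts and was at least 12.8-fold higher.

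Other components of the basement membrane rose in 5 of 7 tested cases, against 33.9% of all genes tested. Of the 5, 2 had passed the filter on low counts through the fetal libraries alone. Among those that passed it in the adult libraries, 3 rose, 1 fell and 1 was not called. Nid1, nidogen, which links the laminin and type IV networks, went from 1.31 and 1.51 to 37.3 and 32.4 CPM (log2 fold change 4.63 ± 0.17 SE, edgeR adjusted p = 1.13e-10). Sparc, a collagen-binding matrix protein, had 0 adult counts and 90 and 93 fetal counts, at least 23.7-fold higher, and Frem2 had 0 against 94 and 63, at least 20.1-fold higher. Fras1, which forms a complex with Frem proteins at embryonic basement membranes, fell from 8.15 and 7.13 to 0.769 and 0.457 CPM (log2 fold change -3.61 ± 0.30 SE, edgeR adjusted p = 4.27e-07). In the hemidesmosome list, whose collagen Col17a1 was untested, 4 of 5 genes rose, against the same 33.9%. Itgb4 went from 102 and 103 to 222 and 236 CPM, Plec from 130 and 133 to 289 and 288 CPM and Dst from 39.8 and 44.1 to 84.5 and 83.3 CPM. Itga6, the partner chain of Itgb4, fell from 302 ± 1.96 to 239 ± 2.33 CPM.

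Of 3 tested genes of collagen breakdown, 2 rose, against 33.9% of all genes tested. Mmp2 was 1 of them and had passed the filter through the fetal libraries alone. Mmp2, a gelatinase, had 1 and 0 counts in adult and 58 and 45 in fetal libraries (ratio 80.2, exact 95% counting interval 14.1 to 3198). Its log2 fold change of 6.04 was 8.55 and 5.26 without adult replicate 1 and 2. Pepd, which frees proline from collagen fragments, rose from 39.8 and 38.1 to 53.4 and 55.8 CPM.

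**Figure D4:**
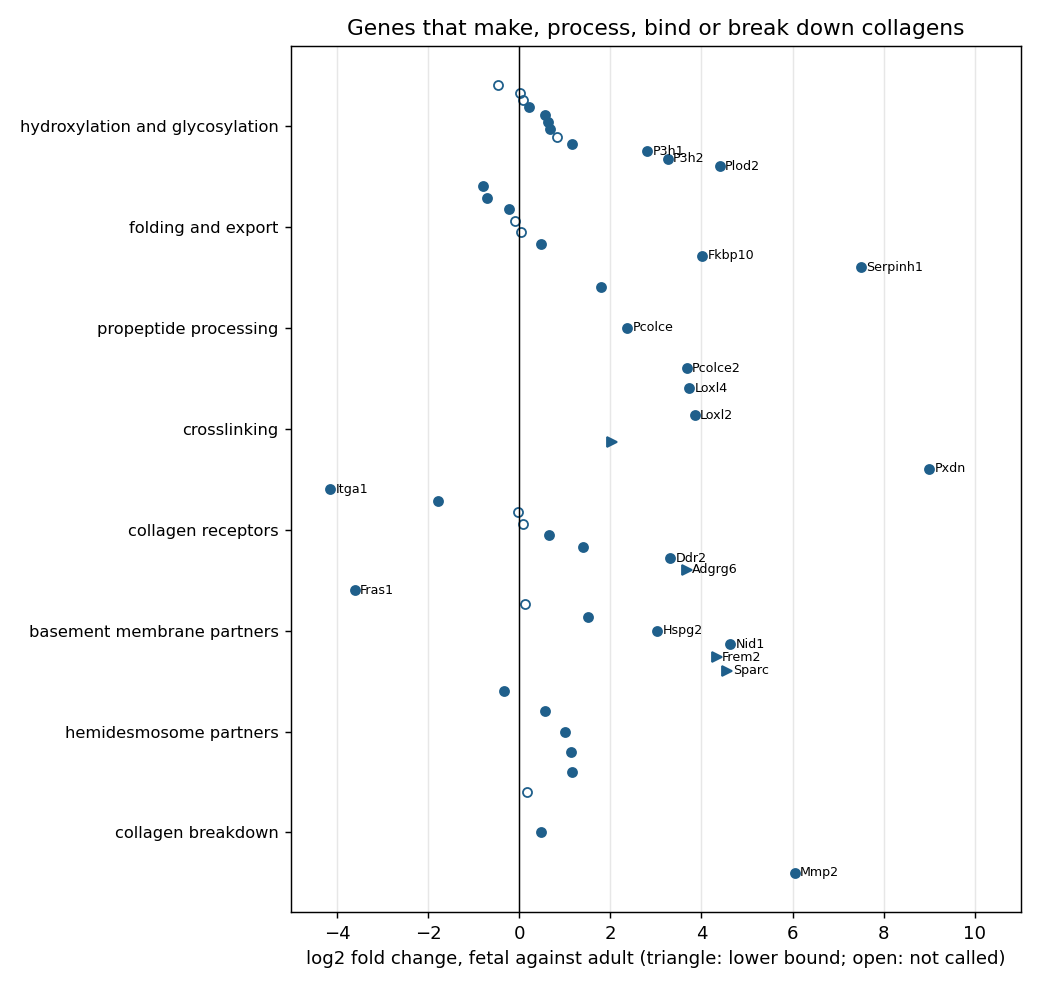
Log2 fold change, fetal against adult, of the 50 tested genes in 8 lists of collagen production, binding and breakdown; each point is 1 gene, triangles are lower bounds for genes with 0 adult counts and open circles genes that were not called. Pxdn and Serpinh1 lie farthest to the right, at fitted values that rest on 1 adult count each, and Itga1 and Fras1 farthest to the left.

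Markers of other cell types were set beside the collagens, since fibrillar chains are made mainly by mesenchymal cells. The 15 mesenchymal markers summed to 6.05 and 5.82 CPM in adult and 19.3 and 17.4 CPM in fetal libraries, while the 11 fibrillar collagens summed to 1.49 and 1.61 against 80.1 and 82.1 CPM. Most of the adult mesenchymal sum was Vim and Pdgfrb, whose values follow. CPM is not scaled for gene length, so the sums of these lists are not compared as levels. Of 6 tested mesenchymal markers 4 rose, against 33.9% of all genes tested, and 3 of the 4 (Pdgfra, Dcn and Postn) had passed the filter through the fetal libraries alone. Pdgfra, a receptor of fibroblasts, had 0 and 3 counts in adult and 18 and 20 in fetal libraries (ratio 9.86, exact 95% counting interval 3.13 to 49.9), and its log2 fold change of 3.21 was 2.16 and 7.18 without adult replicate 1 and 2. Vim, vimentin, rose from 3.24 and 2.81 to 10.1 and 7.23 CPM. The other two, chosen after their values were seen, were Dcn, the proteoglycan decorin, with 0 adult counts and 27 and 24 fetal counts, and Postn, periostin, with 2 and 1 against 38 and 34. Pdgfrb, a receptor of pericytes and fibroblasts, was not called, at 1.49 and 2.01 CPM in adult and 1.05 and 2.13 CPM in fetal libraries. Twist1, a mesenchymal transcription factor, had 2 counts in fetal replicate 1 and 0 elsewhere, and 8 of the 15 markers were at 0 in both adult libraries and 2 of 15 in both fetal libraries. The part of mesenchymal cells in the collagen differences was not tested.

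The 7 smooth muscle markers summed to 27.7 and 26.4 CPM in adult and 9.99 and 8.37 CPM in fetal organoids, most of it Mylk, which fell from 25.5 to 7.04 CPM, while Tagln was not called at 1.40 and 0.904 against 1.26 and 0.761 CPM. Acta2 and Myh11, the actin and myosin of smooth muscle, were named after their values were seen and were too low to test. Acta2 had 0 and 3 counts in adult and 6 and 7 in fetal libraries and Myh11 1 and 2 against 8 and 5, each higher in fetal without overlap (ratio 3.37, exact 95% counting interval 0.927 to 18.5 for each). The 6 endothelial markers held 0.14 to 0.904 CPM in any library, with 3 of them at 0 in all 4 and Pecam1 and Tek at 0 to 5.31 counts. Immune markers summed to 2.19 and 2.51 in adult and 7.41 and 7.84 CPM in fetal libraries, most of it Cd68, which rose from 1.99 to 7.14 CPM, with Csf1r at 2.45 to 7.06 counts. Neural and glial markers summed to 4.56 and 4.42 against 1.33 and 1.75 CPM. Tubb3 among them was lower in fetal (log2 fold change -2.75, and -2.19 and -3.59 without fetal replicate 1 and 2). Of the 5 mesothelial markers, Msln rose from 29.1 and 29.9 to 438 and 432 CPM, while Upk3b fell from 3.42 and 3.11 to 0.21 and 0.685 CPM (log2 fold change -2.87, and -2.23 and -3.91 without fetal replicate 1 and 2). The mitochondrial share of counts was 17.6% and 17.5% in adult and 6.98% and 7.82% in fetal libraries, and its part in these results was not tested.

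**Figure D5:**
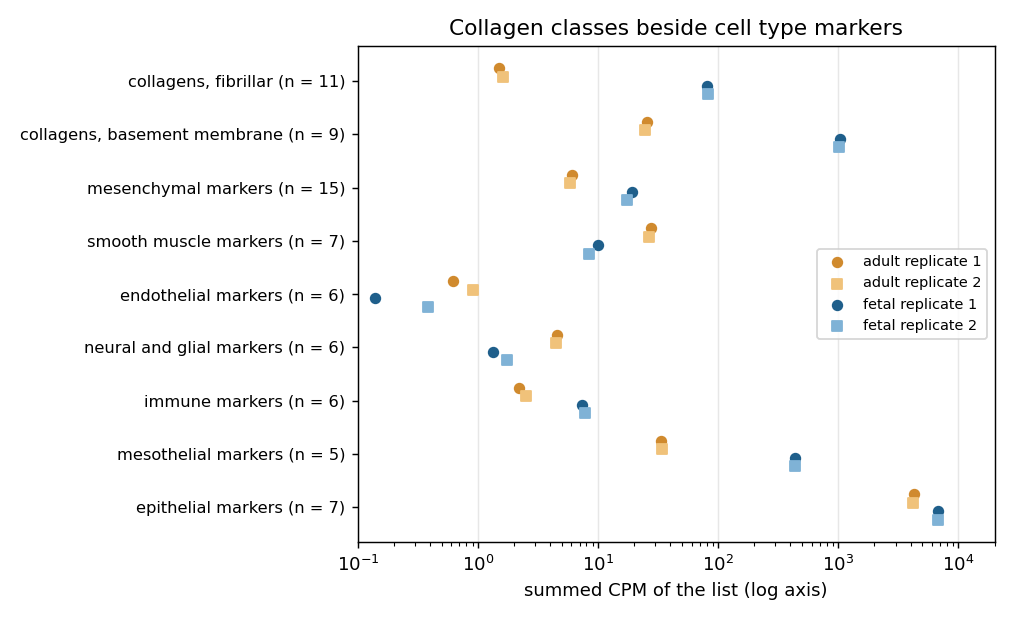
Summed CPM of fibrillar and basement-membrane collagens and of 7 lists of cell type markers in each library on a log axis; n is the number of genes in the list. The fibrillar collagens move from 1.49 and 1.61 to 80.1 and 82.1 CPM between adult and fetal libraries, and the mesenchymal markers from 6.05 and 5.82 to 19.3 and 17.4 CPM. The sums are not scaled for gene length.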

How the data were processed

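The authors deposited a table of estimated counts (expected counts as RSEM gives them, not normalized) and a table of TPM. Both have 1 row for each Ensembl identifier and 1 column for each library, per the file headers. Named in the submitters' processing notes are STAR 2.7.3a, RSEM 1.3.3, Trim Galore and FastQC, with mm10 and GRCm39 as builds. The build, annotation and strand setting behind the tables are not given in the sources used here. Of 55416 identifiers, 52083 matched a symbol in GENCODE M21. Promoter sequences are from RefSeq (GRCm38.p6).

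Expected counts were rounded and tested in edgeR 4.0.16 (R 4.3.3) with TMM factors (0.918 in both adult libraries, 1.10 and 1.08 in the fetal libraries), the filterByExpr filter and a quasi-likelihood test of fetal against adult; the SE is the log2 fold change divided by the root of F. CPM use the TMM factors. For genes at 0 counts throughout a group, folds are bounds against a floor of 3 counts per library; with 1 to 3 counts in a group, the ratio of summed counts has an exact (Clopper-Pearson) 95% interval. Intervals and floors cover counting error only. Replicates differed beyond sampling noise (chi-square per degree of freedom 3.30 and 2.81). On simulated data over 13872 genes, edgeR recovered 72% of 1.5-fold, 86% of 2-fold and 100% of 4-fold changes, with 1.1% false calls. The simulation gave all genes a single dispersion and changed 50 genes at each fold, whereas 66.5% of the genes tested were called here. Its rates therefore need not hold for these data or for genes with few counts.

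The members and lists were chosen with earlier results of these data known. Every collagen is accounted for; full values were given from a group mean of 1 CPM. From each partner list, called genes of at least 1 CPM were named by size of change, up to 3 in the leading direction and 1 in the opposite one, with Serpinh1, P4ha1, Plod2, Lox and Itga2 always, and of each marker list the 2 most abundant, for mesenchymal also Pdgfra, Pdgfrb and Twist1. For the neural and glial list 1 of them is not reported here. Calls were recomputed under 14 alternatives (other scaling, DESeq2 1.42.0, filters, limma 3.58.1 on log2 TPM with pseudocounts of 1 and 0.1, single libraries left out, a replicate block). Col21a1, listed for the search, was not matched.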

Additional observations from a re-analysis of the deposited data

How the results depend on the processing

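The 15 collagens higher in fetal organoids became 14 to 22 under the alternatives, the 33 partner genes 29 to 40 and the 4 genes higher among the 22 mesenchymal and smooth muscle markers together 3 to 6, all within 1.5 times. The 1 collagen lower in fetal, Col20a1, became 0 with library totals, with DESeq2, and with limma on log2(TPM + 1) or log2(TPM + 0.1) at 0.5 TPM in 2 libraries (0 at unadjusted p under 0.05 in each), and 2 with no filter; leaving out single libraries gave 0 to 1. With the replicate number as a block, 15 collagens were higher and 0 lower (1 at unadjusted p under 0.05), and the block changed no other collagen call. Same-numbered libraries had deviations that correlated at -0.02 across genes, and they share only a number. The 7 partner genes lower in fetal became 3 with limma on TPM under each of its 3 settings. From CPM in place of TPM, Col4a1 and Col4a2 made up 67.7% of adult and 85.7% of fetal collagen, against 60.0% and 83.2%, and the fetal ratio of Col4a1 to Col4a2 was 1.08 in place of 1.57, since CPM is not divided by length. With single libraries left out, the log2 fold change of Col11a2 ranged from -0.01 to 0.48, the former (-0.0142) without fetal replicate 2. Of 246 single collagen values under the alternatives, 232 kept direction and call, 10 lost the call, 3 gained it and 1 changed sign. Depth limits the 26 untested collagens, at 0 to 13 counts in any library.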

Other observations

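For some collagens the deposited TPM spread more between the fetal libraries than the counts did. The ratio of fetal replicate 2 to replicate 1 lay between 0.792 and 1.43 in CPM and between 0.247 and 4.16 in TPM over the 18 collagens at 1 CPM or more. Since TPM is a count divided by an estimated gene length, the ratio of those lengths can be read from the tables, scaled so that the median gene is at 1. For Col3a1, with 365 and 347 counts but 10.1 and 17.4 TPM, the length used in fetal replicate 2 was 0.586 times that in replicate 1. For Col5a1 it was 0.61 and for Col4a5 0.743, whereas the central 90% of 10871 genes with at least 50 counts in both libraries lay between 0.869 and 1.15. Col4a1 at 0.983, Col4a2 at 0.986 and Col1a2 at 0.996 lay inside that range. In the adult libraries the length of Col4a1 was 0.746 times as long in replicate 2, beside which the ratio of Col4a1 to Col4a2 there was 3.06 in TPM and 1.34 in CPM.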
